A study of Mus musculus with 4 samples.

Results

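The transcripts described here belong to the urea cycle and to zonal ammonia handling in the mouse liver. They were chosen by name, as the entries of the deposited table for Nags, Cps1, Otc, Ass1, Asl, Arg1, Gls2, Glul, Oat and Slc1a2, which makes 10 of 27027 entries. For the comparison of zones, 7 of them (Nags, Cps1, Otc, Ass1, Asl, Arg1 and Gls2) were taken as periportal and 3 (Glul, Oat and Slc1a2) as pericentral. Hepatic RNA of male C57BL/6 mice (C57BL/6J in the methods of the study) was sequenced in 4 groups. Mice aged 9 to 12 weeks were fasted for 10 h and then received 0.9% NaCl (control) or acetaminophen (APAP) at 300 mg/kg by intraperitoneal injection, and livers were taken after 24 h or 48 h. RNA of 6 mice per control group and of 7 mice per APAP group was pooled at equal shares, and each pool gave 1 library of massive analysis of cDNA ends (MACE), in which each mRNA is read from a fragment next to its poly(A)-tail. A group is therefore a single library without replicates, no p-value is given, and how much mice vary cannot be seen.

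Ammonia that reaches the liver by the portal vein is handled by a pair of systems that lie one behind the other along the sinusoid. Periportal hepatocytes release further ammonium from glutamine by the liver-type glutaminase Gls2 and turn it into urea. The N-acetylglutamate made by Nags activates Cps1, which forms carbamoyl phosphate, Otc joins this to ornithine to give citrulline, Ass1 and Asl convert citrulline to arginine, and Arg1 splits arginine into urea and ornithine. Ammonia that escapes this pathway is captured at the far end, in a narrow rim of hepatocytes around the central vein, where glutamine synthetase (Glul) fixes it to glutamate. Oat feeds ornithine-derived carbon towards glutamate in the same cells, and Slc1a2 (GLT-1) is a glutamate transporter of that rim. Toxic metabolites of APAP arise from pericentral cytochrome P450 enzymes, and the necrosis after an overdose is centred on the central vein.

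The start-site windows of the pericentral genes are shown because these 3 genes were lower together after APAP (folds below 1 at 24 h and 48 h). RefSeq windows from 250 bases before to 50 bases after the annotated start (GRCm38.p6) were matched for 6 of the 10 genes, Ass1, Glul, Nags, Oat, Otc and Slc1a2. They are printed 5′ to 3′ on the coding strand, in lower case, with matches to the TCF/LEF core (CTTTGA, or TCAAAG on the other strand) in capitals. The Glul window lies at chr1:153899679-153899978 on the plus strand, the Oat window at chr7:132576349-132576648 on the minus strand and the Slc1a2 window at chr2:102706188-102706487 on the plus strand, where the RefSeq start falls inside the gene as GENCODE annotates it.
Glul: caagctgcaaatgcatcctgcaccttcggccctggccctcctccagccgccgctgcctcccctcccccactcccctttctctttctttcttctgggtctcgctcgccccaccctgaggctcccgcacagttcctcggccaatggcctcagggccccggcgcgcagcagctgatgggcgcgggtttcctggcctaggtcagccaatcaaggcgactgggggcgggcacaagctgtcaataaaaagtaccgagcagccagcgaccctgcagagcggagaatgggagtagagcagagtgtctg
Oat: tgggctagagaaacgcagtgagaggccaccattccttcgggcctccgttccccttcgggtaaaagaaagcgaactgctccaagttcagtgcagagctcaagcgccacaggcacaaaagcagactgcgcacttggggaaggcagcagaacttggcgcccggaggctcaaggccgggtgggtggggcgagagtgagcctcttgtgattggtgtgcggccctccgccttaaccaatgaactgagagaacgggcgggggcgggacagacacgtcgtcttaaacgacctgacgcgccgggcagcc
Slc1a2: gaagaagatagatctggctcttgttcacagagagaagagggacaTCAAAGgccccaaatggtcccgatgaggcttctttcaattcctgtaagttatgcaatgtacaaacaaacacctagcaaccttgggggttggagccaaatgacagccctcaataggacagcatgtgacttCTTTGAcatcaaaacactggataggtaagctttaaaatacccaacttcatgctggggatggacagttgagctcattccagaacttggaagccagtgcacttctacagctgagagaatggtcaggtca
The TCF/LEF core, the short element bound by the DNA-binding partners of β-catenin, occurred on either strand in 5257 of 32851 RefSeq windows of this length (16.0%). The Slc1a2 window held 2 matches, 206 and 77 bases before the start, and among the periportal genes the Nags window held 1 match, 203 bases before it. A C/EBP pattern (TTNNGCAA, 10.8% of windows) occurred in the Slc1a2 window only among the 6, at 158 bases before the start. The letters of an HNF4 element (CAAAGTCC, 1.42% of windows), which can share CAAAG with a TCF/LEF match, were in none of the 6. None of the 3 patterns was found in the Glul and Oat windows, whose GC content was 64.3% and 61.7% against 45.7% in the Slc1a2 window. These matches describe letters only.

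The deposited read counts were divided by size factors, here called normalized counts, and a fold is the normalized count of an APAP pool over that of the time-matched control pool. Counts were not divided by transcript length, since MACE reads only the 3′ end. The libraries held 4859661 to 5698778 reads and between 19637 and 20641 detected genes. All 10 genes had at least 36 reads in every library. Intervals are 95% exact (Clopper-Pearson) counting intervals, which cover neither mice nor pools. Scaling by library totals in place of size factors would raise the median log2 fold of all genes by 0.19 at 24 h and by 0.27 at 48 h. Directions that this turns are named for the 10 genes. For the other genes, and for medians and sums of lists, they are not named one by one. There, a value below control by less than this shift would turn above control. In a bulk liver sample, fewer cells of a type and less RNA per cell cannot be told apart.

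Glutamine synthetase mRNA was the lowest of the 10 relative to control at both time points. Glul (chr1:153899944-153909723, plus strand, GRCm38, 7 exons) had 3463 normalized counts in the control pool and 371 in the APAP pool at 24 h, and 3564 and 303 at 48 h. Its levels in the control pools nearly coincided (48 h over 24 h, 1.03, 0.980 to 1.08), and both APAP pools lay far below them. Glul was thus 9.32 times lower (95% interval 8.43 to 10.3) at 24 h and 11.8 times lower (10.5 to 13.2) at 48 h. Of the genes compared, those with at least 20 reads in the fuller of the 2 libraries, 17 of 10892 had a lower fold than Glul at 24 h and 20 of 10831 at 48 h. The entry also takes in reads that could be assigned to Mir8114, a microRNA gene within the annotated span of Glul on the same strand.

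Slc1a2 (chr2:102658659-102790784, plus strand, 11 exons), which takes up glutamate, had 176 normalized counts in the control pool and 33.2 in the APAP pool at 24 h, and 282 and 33.8 at 48 h. These rest on 155 and 39 reads and on 263 and 36 reads. The APAP pools were alike and the control pools were not, with a ratio of 1.60 (1.31 to 1.96) between the controls. Slc1a2 was 5.30 times lower (3.71 to 7.74) at 24 h and 8.35 times lower (5.88 to 12.2) at 48 h. Against the control pool of the other time point the log2 folds were -3.09 and -2.38 in place of -2.41 and -3.06, so the order of the time points turned with the control used.

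Oat (chr7:132557478-132576398, minus strand, 10 exons), the mitochondrial ornithine aminotransferase, had 659 normalized counts in the control pool and 277 in the APAP pool at 24 h, and 1089 and 211 at 48 h. It was 2.38 times lower (2.08 to 2.74) at 24 h and 5.16 times lower (4.47 to 5.99) at 48 h, a ratio of the folds of 0.461 (0.378 to 0.562, Woolf interval). The control pools differed 1.65-fold (1.49 to 1.83) in the same gene, and the APAP pools by a factor of 0.762 (0.640 to 0.906). Against the other control pool Oat was 3.94 times lower at 24 h and 3.13 times lower at 48 h, which reverses the order of the time points. The table assigns the entry to Oat or Fgfr2, a growth factor receptor gene whose annotation spans Oat on the same strand, and reads of the pair cannot be told apart by annotation.

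**Figure D1:**
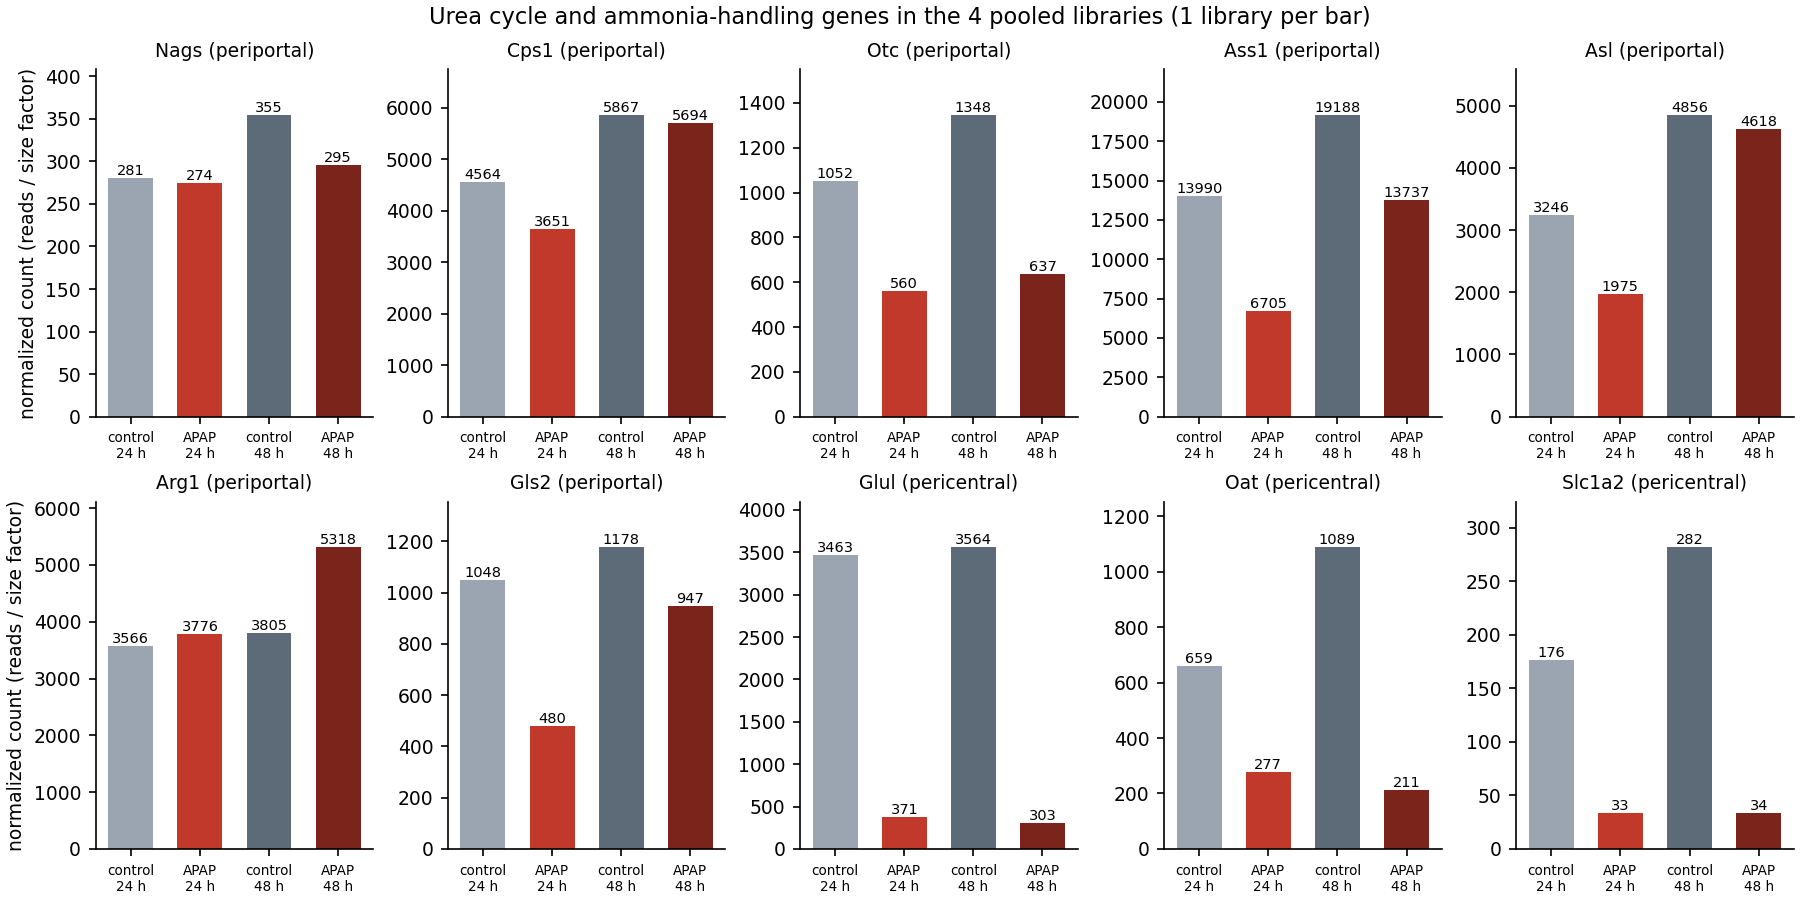
Normalized counts (reads divided by the size factor, linear axes from 0, a separate axis for each gene) of the 10 genes in the 4 pooled libraries, 1 library per bar, with the 24 h pools left and the 48 h pools right in each panel. Glul had 3463 and 3564 in the control pools against 371 and 303 in the APAP pools, whereas Cps1 and Asl in the APAP pool at 48 h (5694 and 4618) were near the control pool of that time (5867 and 4856).

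The entry step of the urea cycle differed little from control. Nags (chr11:102145513-102149477, plus strand, 4 exons), which makes the activator of Cps1, had 281 and 274 normalized counts in the control and APAP pool at 24 h and 355 and 295 at 48 h. At 24 h its fold was 0.977 (0.825 to 1.16), followed by 0.832 (0.711 to 0.974) at 48 h, with the sign of both depending on the scaling or, at 48 h, on the control pool used. Cps1 (chr1:67123026-67231259, plus strand, 38 exons), the mitochondrial carbamoyl-phosphate synthetase, had 4564 normalized counts in control and 3651 after APAP at 24 h, and 5867 and 5694 at 48 h. Its fold of 0.800 (0.766 to 0.835) at 24 h was followed by 0.971 (0.936 to 1.01) at 48 h, where the interval held 1 and the sign turned with library totals or the other control pool. The 2 control pools differed by more in this gene (1.29, 1.23 to 1.34) than APAP and control did at either time point.

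Otc was lower than control at both time points. Otc (chrX:10252305-10321024, plus strand, 10 exons), the mitochondrial enzyme that makes citrulline, had 1052 normalized counts in control and 560.4 after APAP at 24 h, and 1348 and 637 at 48 h. It was 1.88 times lower (1.70 to 2.08) at 24 h and 2.12 times lower (1.93 to 2.33) at 48 h, and the ratio of the folds, 0.886 (0.773 to 1.02), held 1. Within the libraries Otc gave 23.0 reads per 100 reads of Cps1 in each control pool, 15.4 in the APAP pool at 24 h and 11.2 at 48 h. At 48 h the log2 fold of -1.08 became -0.82 with library totals and -0.72 with the other control pool, so that the 2-fold mark was no longer reached.

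The cytosolic arginine-forming enzymes were lower at 24 h and nearer to control at 48 h. Ass1 (chr2:31470207-31520672, plus strand, 16 exons), argininosuccinate synthetase, had 13990 normalized counts in control and 6705 after APAP at 24 h, and 19188 and 13737 at 48 h. It was 2.09 times lower (2.03 to 2.15) at 24 h and 1.40 times lower (1.37 to 1.43) at 48 h. Asl (chr5:130011258-130029247, minus strand, 16 exons), argininosuccinate lyase, had 3246 and 1975 at 24 h and 4856 and 4618 at 48 h. Asl was 1.64 times lower (1.56 to 1.74) at 24 h, whereas its fold of 0.951 (0.913 to 0.990) at 48 h turned above 1 with library totals or with the other control pool. The fold at 48 h over that at 24 h was 1.49 (1.44 to 1.55) for Ass1 and 1.56 (1.46 to 1.67) for Asl, and the control pools differed by nearly as much, 1.37-fold and 1.496-fold.

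Arg1 was the exception among the cycle enzymes. Arg1 (chr10:24915221-24927484, minus strand, 8 exons), the arginase that releases urea, had 3566 normalized counts in control and 3776 after APAP at 24 h, and 3805 and 5318 at 48 h. Its fold was 1.06 (1.01 to 1.11) at 24 h, which fell on the other side of 1 with the other control pool, and 1.40 (1.34 to 1.46) at 48 h, where the log2 fold lay between 0.48 and 0.75 under every scaling and either control. Of the genes compared, 83.1% had a lower fold at 48 h. Ass1 gave 392.3 reads per 100 reads of Arg1 in the control pool and 177.6 in the APAP pool at 24 h, and 504.3 and 258.3 at 48 h. Both APAP pools lay below both control pools in this ratio, which was 2.21 times lower (2.09 to 2.33) at 24 h and 1.95 times lower (1.86 to 2.05) at 48 h.

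Gls2 (chr10:128194457-128210004, plus strand, 18 exons), the periportal glutaminase, had 1048 normalized counts in control and 479.5 after APAP at 24 h, and 1178 and 947 at 48 h. It was 2.19 times lower (1.97 to 2.43) at 24 h and 1.24 times lower (1.14 to 1.36) at 48 h. The fold at 48 h over that at 24 h was 1.76 (1.53 to 2.01), the largest such ratio of the 10 genes, while the control pools differed 1.12-fold (1.03 to 1.23). Nags and Gls2 have overlapping genes on the opposite strand (Gm11586 and Spryd4), as have Glul (Teddm2) and Slc1a2 (Gm13872). In the last 300 bases of their transcripts the 10 genes shared no stretch of at least 100 bases at 95% identity or more with another gene.

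**Figure D2:**
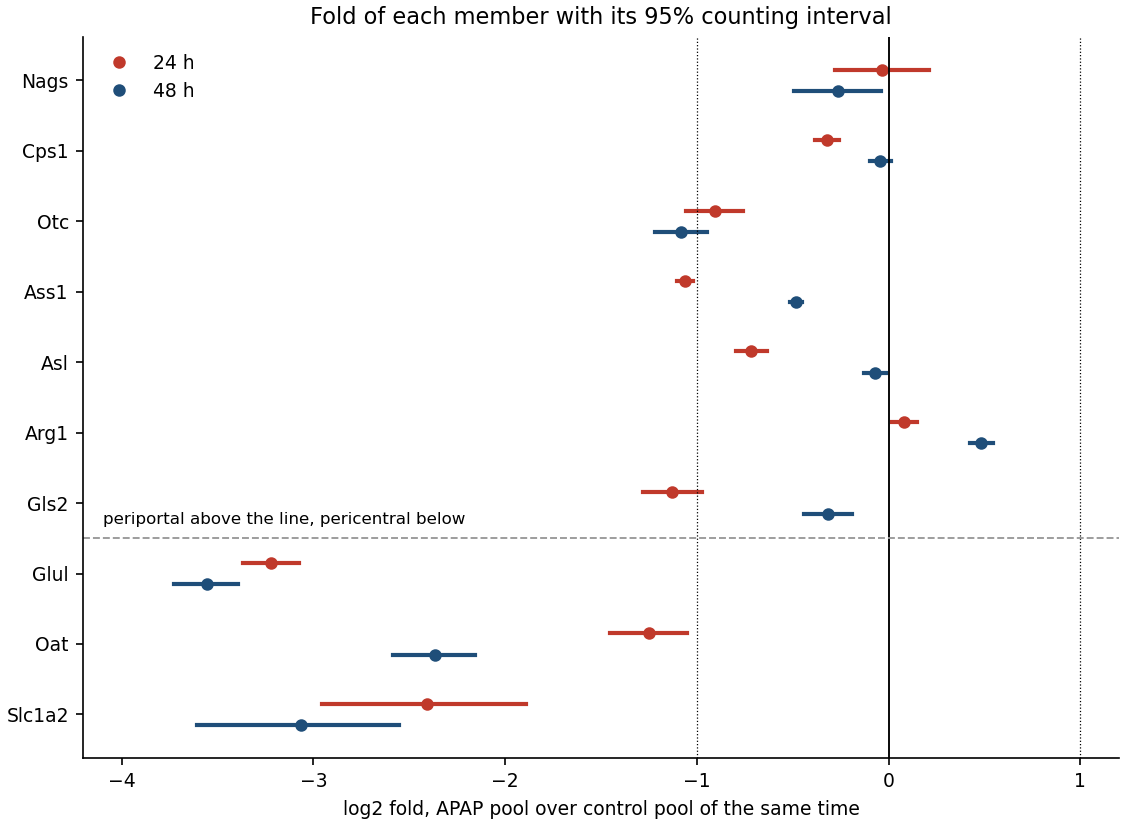
Log2 fold of each gene, APAP pool over time-matched control pool (red, 24 h, and blue, 48 h), with bars for the 95% counting interval and dotted lines at 2-fold in either direction. The 3 pericentral genes lie left of the 2-fold line at both time points, and the log2 folds of the 7 periportal genes lie between -1.13 and 0.48. The signs of Arg1 and Nags at 24 h and of Cps1, Asl and Nags at 48 h depend on the scaling or the control pool.

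Taken by zone, the median log2 fold of the 3 pericentral genes was -2.41 at 24 h and -3.06 at 48 h. For the 7 periportal genes it was -0.72 and -0.26, and for all genes compared 0.03 and -0.01. The pericentral median is the value of Slc1a2 at both time points, the gene with the fewest reads of the 10. The periportal median is the value of Asl at 24 h and of Nags at 48 h. The periportal median at 48 h had no stable sign, with 0.000833 after scaling to library totals and 0.073 against the other control pool. At 24 h, 5 of the 10 genes (Glul, Slc1a2, Oat, Gls2 and Ass1) were at least 2-fold lower, against 4.93% of all genes compared, and none was at least 2-fold higher, against 6.17%. At 48 h, 4 of the 10 (Glul, Slc1a2, Oat and Otc) were at least 2-fold lower, against 5.31%, and none was 2-fold higher, against 5.64%. Among genes with at least 100 reads in the fuller library, a range to which all 10 belong, 5.28% at 24 h and 6.34% at 48 h were 2-fold lower. The study used a 5-fold mark for induced genes only, shared by both time points. With that mark applied here to lower folds at each time point, Glul and Slc1a2 at 24 h and all 3 pericentral genes at 48 h were lower. This held for 0.643% and 0.84% of all genes compared. With library totals Ass1 and Gls2 at 24 h no longer reached 2-fold (log2 folds -0.87 and -0.94), and against the other control pool Otc and Asl at 24 h reached it as well (-1.27 and -1.30).

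**Figure D3:**
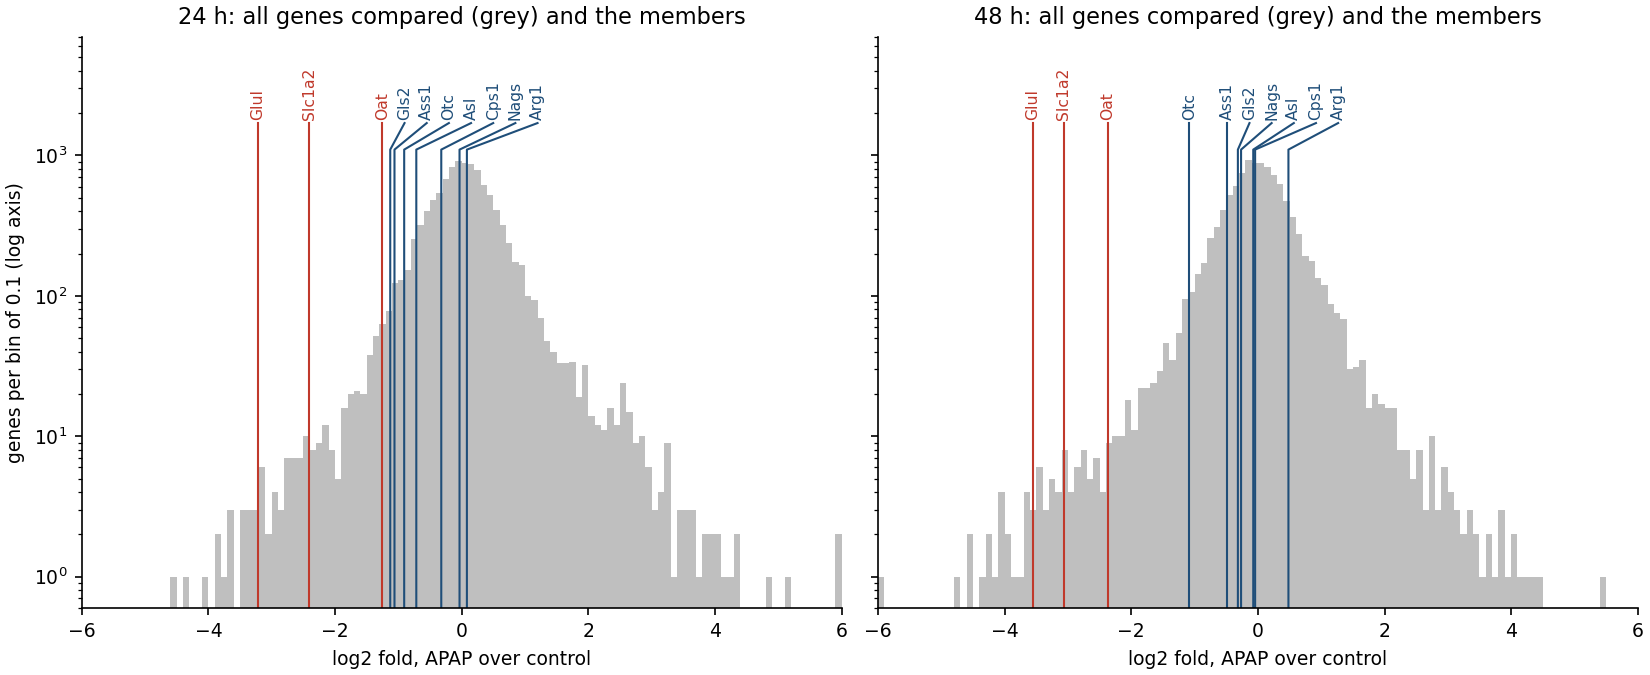
Number of genes (log axis) per log2 fold bin of 0.1, APAP over control, at 24 h (left) and 48 h (right), with folds beyond the axis placed in its end bins and vertical lines for the pericentral (red) and periportal (blue) genes. Glul, Slc1a2 and Oat lie in the left tail, with 0.156%, 0.578% and 2.75% of genes lower at 24 h and 0.185%, 0.425% and 0.803% at 48 h. The periportal genes other than Otc range at 48 h from Ass1, with 18.0% of genes lower, to Arg1, with 83.1%.

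Ratios of reads within a library need no size factor. The pericentral genes together gave 15.5 reads per 100 periportal reads in the control pool and 3.91 in the APAP pool at 24 h, and 13.5 and 1.75 at 48 h. The control pools were close to each other and both APAP pools were below them. The ratio was 3.96 times lower (3.66 to 4.28, Woolf interval) at 24 h and 7.70 times lower (7.05 to 8.40) at 48 h. Glul gave 3046 of the 3781 pericentral reads in the control pool at 24 h, and without Glul the log2 change was -0.76 in place of -1.99 at 24 h and -2.26 in place of -2.94 at 48 h.

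Glul against single periportal genes gave the same order of the libraries. There were 75.9 Glul reads per 100 Cps1 reads in the control pool and 10.2 in the APAP pool at 24 h, and 60.7 and 5.32 at 48 h. The fold of this ratio was 7.46 (6.69 to 8.32) and 11.4 (10.1 to 12.9) times lower. For the opposed enzymes of glutamine, there were 330.4 reads of the synthetase Glul per 100 reads of the glutaminase Gls2 in control and 77.4 after APAP at 24 h, and 302.5 and 32.0 at 48 h. This ratio was 4.27 times lower (3.69 to 4.93) at 24 h and 9.46 times lower (8.20 to 10.9) at 48 h, with both control pools well above both APAP pools. For the pair that uses ornithine, Oat gave 62.7 reads per 100 reads of Otc in control and 49.4 after APAP at 24 h, and 80.8 and 33.1 at 48 h. That ratio was 1.27 times lower (1.07 to 1.503) at 24 h and 2.44 times lower (2.05 to 2.90) at 48 h.

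**Figure D4:**
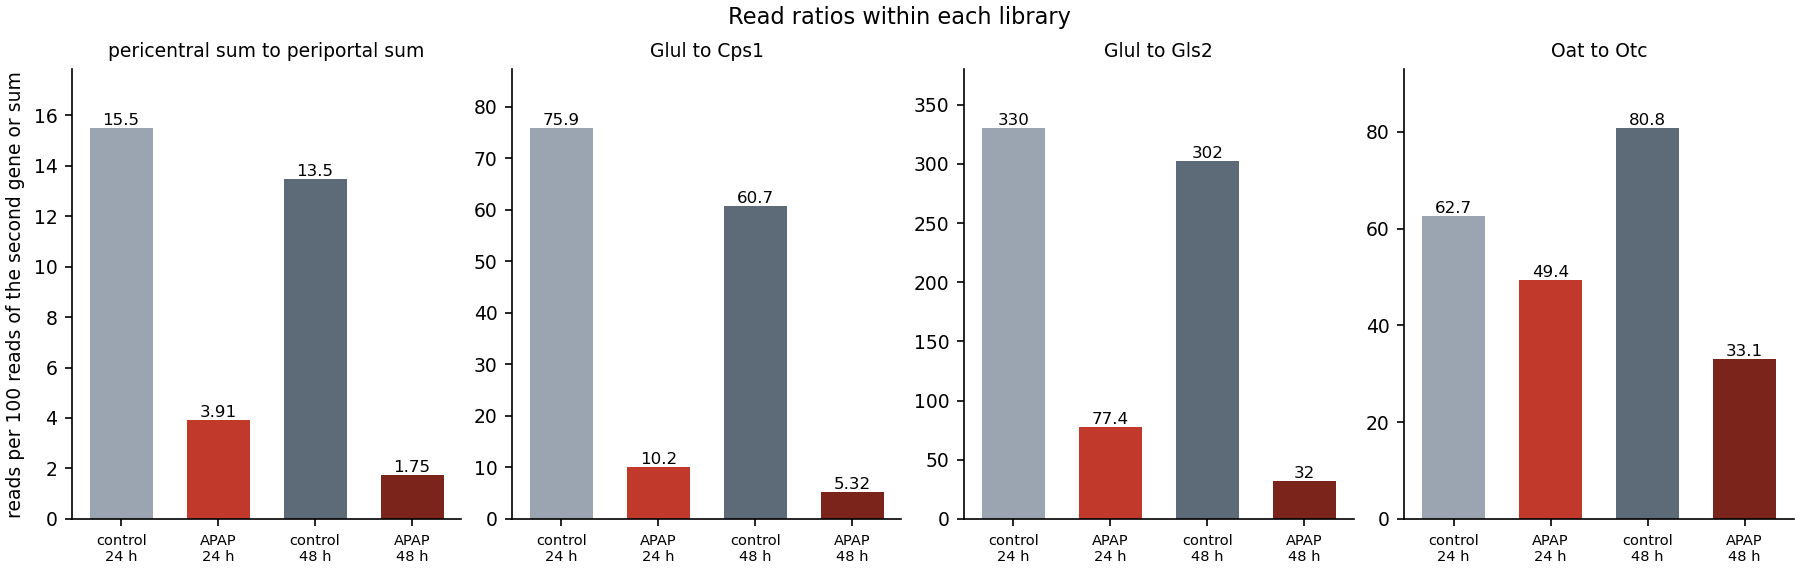
Reads of the first gene or sum per 100 reads of the second within each library (linear axes from 0), for the 3 pericentral over the 7 periportal genes, Glul over Cps1, Glul over Gls2 and Oat over Otc. The APAP bars (red) lie below the control bars (grey) of the same time point in all 4 panels, with Glul over Cps1 at 75.9 and 60.7 in the control pools and at 10.2 and 5.32 in the APAP pools.

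The control pools at 48 h and 24 h give the only view of how far pools without APAP lie apart, and 3.36% of 10157 genes differed at least 2-fold between them in either direction. None of the 10 genes did, but the ratio of 48 h over 24 h was above 1 for all 10, from 1.03 for Glul, whose interval held 1, to 1.65 for Oat. Nags and the urea cycle enzymes apart from Arg1 (1.07) lay between 1.26 and 1.496. The difference between APAP and control was larger than this spread for Glul, Slc1a2, Oat, Otc, Gls2 and, narrowly at 48 h, Ass1 at both time points, for Asl at 24 h and for Arg1 at 48 h. For Cps1 and Nags it was smaller at both, for Arg1 at 24 h and for Asl at 48 h. Between the APAP pools, Asl (2.34-fold, 2.22 to 2.46), Ass1 (2.05-fold, 1.99 to 2.11) and Gls2 (1.97-fold, 1.78 to 2.19) were higher at 48 h than at 24 h, whereas Glul (0.816, 0.704 to 0.944) and Oat were lower and Slc1a2 was at 1.02 (0.628 to 1.64).

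Further genes of nitrogen metabolism were taken from 5 lists that were counted in full. Of 63 listed genes, 50 had enough reads at 24 h and 51 at 48 h, and Aldh4a1 and Rhcg were not analysed here. At 24 h 7 were at least 2-fold lower and 5 at least 2-fold higher, and at 48 h 4 were lower and 2 higher, with median log2 folds of -0.14 and -0.18. Beside these counts, 4.93% of all genes compared were lower and 6.17% higher at 24 h, and 5.31% and 5.64% at 48 h, when the list counts were near that background.

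Among the carriers and suppliers of the cycle (9 genes compared), Got1, a transaminase that makes aspartate, and Sirt5, a mitochondrial deacylase known to act on Cps1, were 2.10 and 2.16 times lower at 24 h, the latter on 34 and 21 reads. Car5a, the carbonic anhydrase that supplies bicarbonate to Cps1, was 1.53 times lower (fold 0.656, 0.489 to 0.877) at 24 h and 2.67 times lower (0.374, 0.277 to 0.500) at 48 h. The ornithine carrier Slc25a15 had folds of 0.778 and 0.896 and the aspartate-glutamate carrier Slc25a13 of 0.720 and 0.640. Glud1, the glutamate dehydrogenase, had folds of 1.36 (1.29 to 1.44) and 1.26 (1.19 to 1.33).

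Of the genes for ornithine, proline, polyamines and creatine, 13 were compared at 24 h and 14 at 48 h. Gamt, which makes creatine from a product of arginine, was 4.31 times lower at 24 h (1692 and 524 reads, fold 0.232, 0.210 to 0.256) and 3.59 times lower at 48 h (2320 and 738 reads, fold 0.278, 0.256 to 0.302). Prodh, the proline dehydrogenase, was 2.53 and 2.34 times lower. Sat1, which acetylates polyamines for export, was 2.56-fold higher (1.93 to 3.43) at 24 h and had a fold of 1.62 at 48 h. The polyamine enzyme Odc1, which uses ornithine, had folds of 1.69 (1.34 to 2.14) and 0.852 (0.678 to 1.07).

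In the list of glutamine, ammonium and arginine transport (8 compared), the ammonium transporter gene Rhbg, itself pericentral, was 5.74 times lower at 24 h on 43 and 10 reads (fold 0.174, 0.0781 to 0.352) and 11.3 times lower at 48 h on 109 and 11 reads (0.0882, 0.0428 to 0.164). The control pools themselves stood at 48.9 and 117 normalized counts of Rhbg, against 8.52 and 10.3 in the APAP pools. Slc38a3, the glutamine transporter SNAT3, had folds of 0.622 (0.592 to 0.652) and 0.578 (0.552 to 0.605). Slc3a2, the heavy chain of several amino acid exchangers, was 2.05-fold higher at 24 h and had a fold of 1.55 at 48 h.

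Of the 12 genes that release or store amino nitrogen, Aspg and Cth, which split asparagine and cystathionine, were 2.33 and 2.12 times lower at 24 h and had folds of 0.579 and 0.881 at 48 h. Sdsl, related to serine dehydratase, had a fold of 3.01 (2.36 to 3.86) at 24 h, when it was among the higher genes as at 48 h with 2.33 (1.86 to 2.95). Asns, the asparagine synthetase, was 3.50-fold higher (1.58 to 8.79) at 48 h on 8 and 32 reads. Of 8 regulators of urea cycle genes, Cebpb was 2.06-fold higher (1.83 to 2.31) at 24 h, and Cebpa had folds of 0.561 (0.503 to 0.624) and 0.637 (0.578 to 0.702). The other regulators, among them Hnf4a (1.17 and 0.942), the glucocorticoid receptor gene Nr3c1 and the glucagon receptor gene Gcgr, lay between 0.788 and 1.17.

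**Figure D5:**
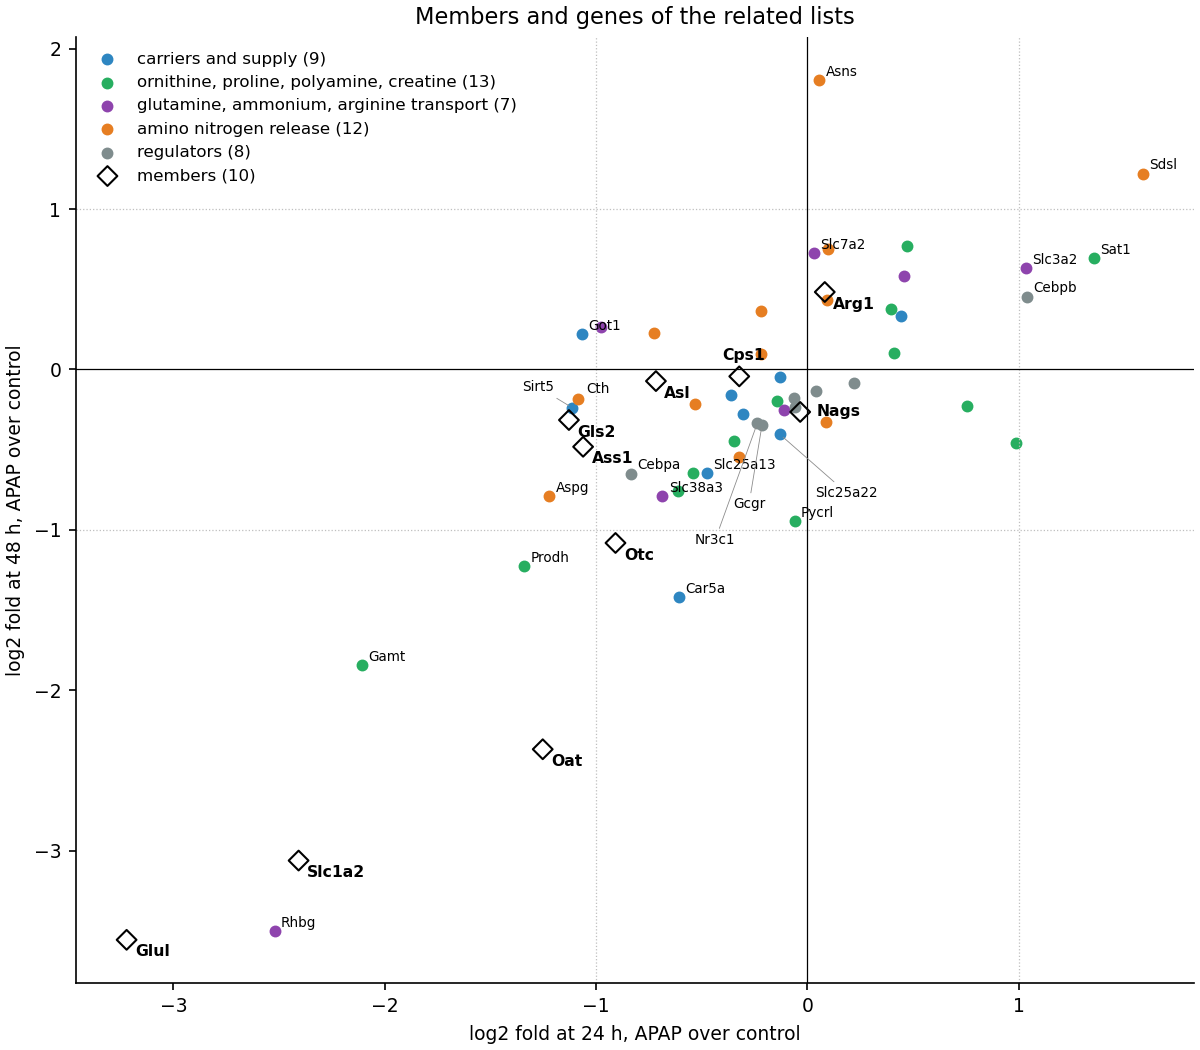
Log2 fold at 48 h against log2 fold at 24 h, APAP over control, for the 10 genes (open diamonds) and 49 genes of the related lists with enough reads at both time points (points, coloured by list), with dotted lines at 2-fold. Rhbg and Gamt lie nearest to the pericentral genes at the lower left, and most list genes lie within the dotted lines.

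Other zonal genes were read in the same pools. Of 12 further pericentral markers with enough reads, among them the P450 genes Cyp1a2, Cyp2c37 and Cyp2e1, 8 were at least 2-fold lower and none 2-fold higher at each time point, though not the same 8, with median log2 folds of -1.62 and -1.57. Summed over all 14 genes of that list, those with few reads included, normalized counts stood at 0.436 and 0.360 of control. Of 12 further periportal markers, 3 were lower (Etnppl, Cyp2f2 and Aldh1b1) and 1 higher (Pck1) at 24 h, and 1 was lower (Cyp2f2) and 1 higher (Pck1) at 48 h, with medians of -0.40 and 0.21. Beside the counts of both lists, 4.93% of all genes compared were lower and 6.17% higher at 24 h, and 5.31% and 5.64% at 48 h. The periportal counts at 48 h were near these shares. The same shares apply to the cell type markers below. Cyp2f2, a periportal P450 gene, had folds of 0.444 and 0.249, and Pck1, the gluconeogenic carboxykinase that is also induced by fasting, 4.07 and 3.31. Of the pericentral markers, Cyp2e1 was among the lower genes at 48 h only (0.623 and 0.369) and Tbx3 at 24 h only (0.358 and 0.538), while Cyp2a5 (0.591 and 0.922), Lect2 (0.690 and 0.803) and Rnf43 (1.06 and 0.874) did not reach 2-fold. Rhbg stands in this list and in that of transport.

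As a check of the labelled tissue, markers shared by hepatocytes of all zones (9 genes) had summed counts that stood at 0.929 and 0.970 of control with none 2-fold lower and Fgb 2.70-fold higher at 24 h. Alb alone gave 237292 of the 523576 normalized counts of this sum in the control pool at 24 h. With library totals the sum would lie above control at both time points. Single markers moved within this sum. Ttr had folds of 0.561 and 1.06, Apoa2 of 0.690 and 0.617, Serpinc1 of 0.661 and 0.605 and Ahsg of 1.37 and 1.43. Sums of a list take in all its genes found, also those with too few reads to be compared. The summed counts of macrophage markers (9 of 10 compared) stood at 1.22 and 2.05 of control. At 24 h Chil3 (fold 11.6, on 8 control reads) and Lyz2 (3.42) were higher. The other 7 compared did not reach 2-fold, and the median log2 fold was -0.0069. At 48 h Chil3 (42.3, on 5 control reads), Lyz2 (5.39) and Cd68 (5.11) were higher, and the median was 0.60. The summed counts of neutrophil markers (2 of 5 compared, S100a8 and S100a9, both higher) stood at 13.4 and 8.28. Those of endothelial markers stood at 1.11 and 1.06, those of stellate markers at 1.19 and 1.70 and those of cholangiocyte markers (2 of 5 compared) at 2.78 and 1.69. Sox9 and Spp1 carried the cholangiocyte sum, while Krt19, Krt7 and Epcam had at most 15 reads in a library. The neutrophil markers summed to between 14.8 and 18.2 normalized counts in the control pools and 151 to 198 in the APAP pools, and Ngp and Camp had at most 1 read in a library. Erythroid markers stood at 0.700 and 0.534. Of the pancreas markers, Ctrb1 had 22 reads in the control pool at 48 h and none in the other libraries, and Cela1 had folds of 0.585 and 0.577. The part of these shifts in the values of the 10 genes was not tested.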

How the data were processed

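Hepatic RNA of 4 pools (NaCl at 24 h and 48 h, APAP at 24 h and 48 h) was analysed by MACE. The authors removed duplicate reads by unique molecular identifiers, trimmed bases of low quality and poly(A)-tails, mapped on mm10 and deposited, per gene, the read count from HTSeq without normalization. The same table holds normalized values, log2 ratios, p-values and FDR values of the authors, which were not used. Tool versions are not given in the sources used here. The pool sizes, age and fasting come from the methods of the study.

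Counts were divided by DESeq2 1.42.0 median-of-ratios size factors over 16338 genes (control pools 0.880 and 0.933, APAP pools 1.17 and 1.07, for 24 h and 48 h), with edgeR 4.0.16 TMM as an alternative (R 4.3.3). Neither tool's test was run, since a group is 1 library. Folds, exact (Clopper-Pearson) and Woolf intervals for ratios of ratios (95%) were computed in Python 3.11.15 with scipy 1.17.1, numpy 2.4.6 and pandas 2.3.3, plots with matplotlib 3.10.9. A count below 3 reads was set to 3, genes needed 20 reads in the fuller library, and the mark for higher or lower was 2-fold. The computation of the intervals was checked on simulated counts that varied by counting error only. That check cannot show how the intervals fare with variation between mice or pools. Positions come from GENCODE M21 (GRCm38).

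The 10 genes and all lists were chosen with earlier results of these data known. The naming rule took the 10 genes and the 5 nearest profiles of Glul and Cps1. In each related or marker list it took the 3 genes with the largest absolute log2 fold per time point. Not all of these list genes are printed, so those named are not every extreme of each list. Fold values of Slc25a15, Glud1, Odc1, Hnf4a, Hal and Tat were added after their values were seen, as were Cyp2e1, Cyp2a5, Tbx3, Lect2, Rnf43, Aldh1b1, Ngp, Camp, Krt19, Krt7 and Epcam. The same holds for Alb, Stab2, Kdr, Clec4g, Dcn and Reln. Alternatives were TMM, library totals with and without the 10 most abundant genes, the control pool of the other time point, both control pools summed, a pseudocount of 1, other thresholds and read filters, and sums without 1 gene. The sum without Ass1 and the share of genes with at least 100 reads were chosen after seeing the data. For 1 gene of the related lists, values are not reported here and it is not drawn, but it is included in the counts of its list.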

Additional observations from a re-analysis of the deposited data

Results flagged for a closer look

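Among the related genes, 3 had a counting interval wholly below control at 24 h and wholly above control at 48 h. Got1, the cytosolic aspartate transaminase, had a fold of 0.477 (0.420 to 0.541) at 24 h, and at 48 h it was 1.17 (1.06 to 1.29), on 641 and 408 reads and on 693 and 925 reads in control and APAP. Hal, the histidine ammonia-lyase that releases ammonium from histidine, had folds of 0.859 (0.785 to 0.939) and 1.29 (1.19 to 1.39). Tat, the tyrosine aminotransferase, had folds of 0.859 (0.804 to 0.917) and 1.07 (1.01 to 1.13). Hal and Tat both had a log2 fold of -0.22 at 24 h. Library totals would raise log2 folds at 24 h by 0.19 and so bring both near control. The control pools of Tat (1954 and 2435 normalized counts) lay further apart than APAP and control did at either time point, unlike those of Got1 (729 and 743) and Hal (1044 and 1190). With 1 library per group the difference between the time points was not tested, and none of the 10 urea cycle and ammonia-handling genes showed such an opposition.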

How the results depend on the processing

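No paired analysis was possible because each group is 1 library, and for the same reason no library was left out. Of the comparison values, 76 were close to the reported value under an alternative, 38 moved and 2 turned their sign, and of the values of single genes 115 were close, 58 moved and 7 turned their sign although their interval had lain on a single side of 1. Among the values whose interval held 1, Cps1 at 48 h also turned to log2 folds of 0.22 with either kind of library totals, 0.32 against the other control pool and 0.12 against the sum of both, and Nags at 24 h to 0.15 and 0.13 with the 2 kinds of library totals. Glul stayed 8.19 to 9.60 times lower at 24 h and 9.79 to 11.7 times lower at 48 h under the alternatives, Slc1a2 4.66 to 8.49 and 5.22 to 8.33 times, and Oat 2.09 to 3.94 and 3.13 to 5.15 times. The causes of the changes below were not tested.

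The number of the 10 genes at least 2-fold lower at 24 h (5) was 3 with library totals, 3 without the 10 most abundant genes and 2 at 5-fold. For the related genes at 24 h, the 7 lower were 4 with either kind of library totals, 13 at 1.5-fold, 1 at 5-fold and 3 when the interval had to pass 2-fold, and the 5 higher were 0 at 5-fold, 1 by the interval and 8 without the read filter. At 48 h, the 4 lower were 2 against the other control pool, 11 at 1.5-fold and 1 at 5-fold, and the 2 higher were 5 with either kind of library totals, 4 against the other control pool, 4 against the sum of both, 9 at 1.5-fold, 0 at 5-fold, 0 by the interval, 1 with at least 100 reads and 4 without the read filter.

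The periportal median log2 fold at 24 h (-0.72) was -0.53 with library totals, -0.55 without the 10 most abundant genes, -1.27 against the other control pool and -1.04 against the sum, and at 48 h (-0.26) it was 0.000833, -0.00265 and 0.073 under the first 3. The pericentral median was -3.09 at 24 h and -2.38 at 48 h against the other control pool. The log2 change of the pericentral to periportal read ratio at 24 h (-1.99) was -1.79 against the other control pool, -0.76 without Glul, -2.50 without Oat and -2.30 without Ass1, and at 48 h (-2.94) it was -3.14, -2.26, -3.29 and -3.18.

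Arg1 at 24 h turned to -0.011 against the other control pool. Asl at 48 h turned to 0.193 and 0.190 with the 2 kinds of library totals, to 0.51 against the other control pool and to 0.18 against the sum, and Nags at 48 h to 0.000833 with library totals and to 0.073 against the other control pool.

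Depth limits the values of Slc1a2, with 36 and 39 reads after APAP, and of the list genes with few reads (among them Asns, Sirt5, Rhbg and Chil3), more than those of the other genes.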

Other observations

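The profile of Glul over the 4 libraries was compared with that of 4398 genes whose normalized counts averaged 100 or more, by the Euclidean distance of centred log2 values. The 5 nearest genes were Elovl6 (0.423), Fasn (0.442), Acacb (0.444), Hcn3 (0.505) and Me1 (0.526). Elovl6, Fasn and Me1 encode enzymes of fatty acid synthesis and its supply, Acacb encodes an acetyl-CoA carboxylase, and Hcn3 encodes an ion channel. Fasn, the fatty acid synthase, had 5289 and 792 reads in control and APAP at 24 h and 5224 and 768 at 48 h, which is 8.91 and 7.78 times lower after normalization. Elovl6, a fatty acid elongase, was 12.5 and 9.79 times lower. Likeness was measured over 4 libraries only. The 5 genes nearest to Cps1 were Gm4788 (0.0618), Slc17a2 (0.0730), Npc2 (0.0905), Cuedc2 (0.104) and Acsl4 (0.124), with folds between 0.747 and 0.819 at 24 h and between 0.871 and 1.02 at 48 h.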
